A study of Mus musculus with 9 samples.

Results

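Apolipoprotein E is the protein that directs lipoprotein particles to their cell surface receptors. The 9 genes described here are those through which an activated CD4+ T cell could make apolipoprotein E itself, take lipoprotein up, and send cholesterol back out. They are Apoe, the receptor genes Lrp1, Lrp8 and Scarb1, the receptor-degrading ligase gene Mylip, the liver X receptor (LXR) genes Nr1h2 and Nr1h3, and the efflux transporter genes Abca1 and Abcg1. They were chosen by name, and all 9 were found by Ensembl identifier among the 55536 genes of the count table. All 9 passed the filter on low counts, which left 14684 genes to test. Nr1h3 had the lowest counts of the 9, at 5 to 24 per library.

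RNA was sequenced from 9 cultures of CD4+ T cells taken from the spleens of wild-type mice, all males 6 to 12 weeks old. Every culture had murine IL-2 (5 ng/mL) and was stimulated for 18 h through CD3 and CD28 with antibody-coated beads. The 3 PBS cultures received phosphate-buffered saline, the 3 WT_exo cultures received WT-BMDM-exo, and the 3 EKO_exo cultures received EKO-BMDM-exo, both at 2e+09 particles per mL. These are exosomes, small secreted vesicles, from BMDM (commonly, bone marrow-derived macrophages) of wild-type mice and of mice deficient in ApoE. The deficiency therefore lies in the donors of the exosomes. The T cells of all 3 groups carry a wild-type genotype, so their Apoe mRNA is no check of the group labels. All 9 cultures were stimulated. Whether the replicates of a group are from different mice is not labelled, and the p-values then describe culture-to-culture spread, which may be technical.

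Cholesterol that enters a cell through lipoprotein receptors is either stored, used in membranes or exported. LXRs are nuclear receptors that bind oxidised cholesterol and act together with retinoid X receptors. They switch on the export genes Abca1 and Abcg1, the receptor-degrading ligase gene Mylip, and in macrophages Apoe. In T cells, LXR signalling is known to restrain proliferation, which needs membrane cholesterol.

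The total count was 25792975 to 32971791 per library. Each EKO_exo library lay apart from the other 8 on one of the first 3 principal components, replicate 3 on the first, replicate 1 on the second and replicate 2 on the third, and these 3 libraries had fewer genes with a count (19038 to 19518) than the other 6 (19989 to 20568). The 8 CD4+ T cell markers, Cd3e, Cd4 and Trac among them, were present in every library. They summed to 4850 to 4920 CPM (counts relative to library size) in PBS, 4660 to 4800 in WT_exo and 4840 to 4920 in EKO_exo. These sums hide changes of single markers at an adjusted p under 0.05 (edgeR quasi-likelihood test). Against PBS, 2 of the 8 were higher and 1 lower in EKO_exo (Il2ra, Cd3e and Cd5 together), and 1 was lower in WT_exo (Il2ra). Over all genes, 5.08% and 4.97% passed in these comparisons. Il2ra alone was at 1770 to 2000 CPM. Of 15 macrophage and monocyte markers, which matter here because macrophages express Apoe strongly, C1qa and Marco had 0 counts in every library and Adgre1 at most 3. Their sum was 19.6 to 30.0 CPM in PBS, 22.8 to 30.3 in WT_exo and 24.9 to 29.8 in EKO_exo. The 7 B cell markers summed to 523 to 565 CPM in PBS, 511 to 575 in WT_exo and 608 to 615 in EKO_exo. Nearly all of this was the immunoglobulin genes Ighm and Igkc, both called higher in EKO_exo than in PBS (adjusted p = 0.00795 and 0.0046, edgeR quasi-likelihood test). Igkc was also one of the 5 genes called between the exosome groups (0.43 log2 higher in EKO_exo than in WT_exo, adjusted p = 0.00219), and in WT_exo against PBS it was at -0.15 without a call. Their part in the EKO_exo results below was not tested.

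Promoters of a pair of genes are shown because they belong to the receptor gene that changed in the T cells and to the transporter gene that is a textbook target of that receptor. RefSeq upstream windows (GRCm38.p6, 250 bases before a transcript start) were matched for 7 of the 9 genes. Capitals mark 3 matches to CCGGAAGT, letters found in binding sites of ETS family transcription factors, in the Nr1h2 window (chr7:44553966-44554215, minus strand). The first 2 of them are on the opposite strand and read ACTTCCGG. In the Abca1 window (chr4:53159896-53160145, minus strand) capitals mark a match, on the opposite strand, to a loose form of the direct repeat that LXRs bind, GGTTA and CGGTCA with 4 bases between them.
Nr1h2: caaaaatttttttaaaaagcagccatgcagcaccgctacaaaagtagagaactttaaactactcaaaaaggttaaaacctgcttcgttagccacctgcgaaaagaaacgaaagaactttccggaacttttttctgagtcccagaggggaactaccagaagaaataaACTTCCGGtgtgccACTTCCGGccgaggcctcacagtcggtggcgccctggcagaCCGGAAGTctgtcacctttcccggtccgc
Abca1: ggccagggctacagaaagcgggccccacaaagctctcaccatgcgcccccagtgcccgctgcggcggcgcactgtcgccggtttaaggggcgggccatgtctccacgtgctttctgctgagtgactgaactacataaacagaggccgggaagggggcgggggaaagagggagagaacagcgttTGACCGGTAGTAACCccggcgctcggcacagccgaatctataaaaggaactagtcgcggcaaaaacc
CCGGAAGT was searched on both strands and overlapped neither LXR form in the members' windows. It occurred at least once in 2.88% of the 32851 RefSeq windows of this length, and 3 windows in all held 3 copies. The matches in Nr1h2 began 84, 70 and 29 bases before the start. The loose LXR form, also searched on both strands, occurred in 4 windows (0.0122%), and its match in Abca1 began 67 bases before the start. The stricter form, AGGTCA repeated after 4 bases, occurred in 5 windows (0.0152%) and in none of the members' windows. Both the ETS motif and the looser LXR form were chosen after these sequences were read, so the shares describe the windows and are no test.

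The first question is how strongly each gene was expressed. Per kilobase of merged exon, Nr1h2, which encodes LXRβ, stood highest at 47.4 ± 4.3 CPM per kb (SD, n = 9 libraries), above 93.0% of the genes tested. Nr1h3, which encodes the second receptor LXRα, stood lowest at 0.176 ± 0.073 CPM per kb. Of the LXR mRNAs, LXRβ was thus the abundant one in these cultures.
Abcg1, Lrp8, Apoe, Scarb1 and Mylip lay close together below Nr1h2, at 8.58, 8.20, 7.93, 7.66 and 6.24 CPM per kb. The ranges of neighbours in this group overlapped, so their order is not resolved. Nr1h2 lay above Abcg1 in 9 of 9 libraries without overlap. Abca1, the transporter that loads cholesterol onto apolipoprotein A-I, was at 0.523 CPM per kb, 11.9 times below Mylip. Abcg1, which exports cholesterol to mature lipoprotein particles, was therefore the more abundant of the 2 efflux transporters in every library. Lrp1, the large endocytic receptor through which many cells take up apolipoprotein E, was at 0.262 CPM per kb, below Abca1 in 9 of 9 libraries. Lrp1 and Nr1h3 overlapped.

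**Figure D1:**
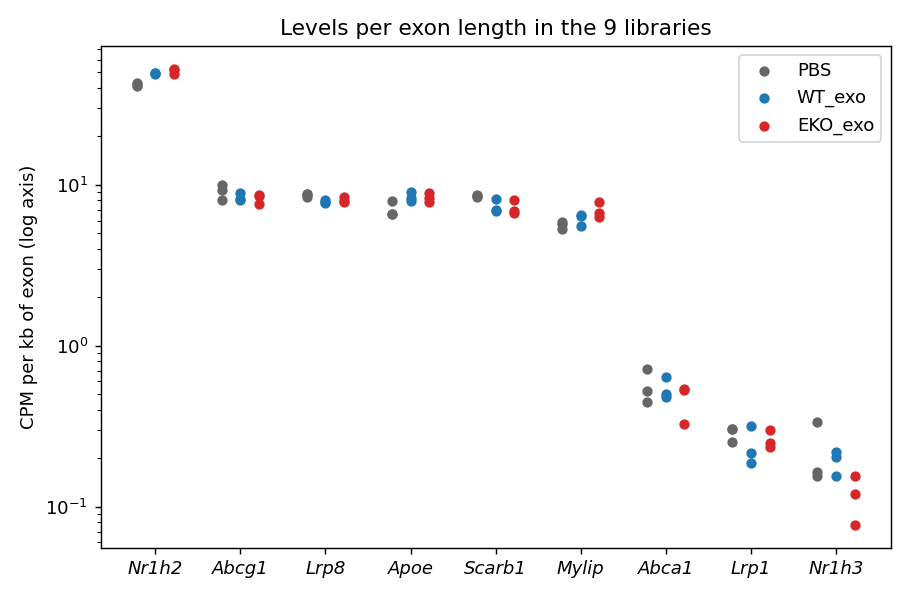
Level of each of the 9 genes per kilobase of exon (log axis) in each library, coloured by group, with genes in order of their mean over all libraries. Nr1h2 sits at 41.0 CPM per kb or more in all libraries, 5 genes lie between 5.33 and 10.0, and Abca1, Lrp1 and Nr1h3 lie at or below 0.717.

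Apoe, the ligand, was measured at 402 to 600 counts per library. It was at 14.2, 16.9 and 14.1 CPM in PBS replicates 1, 2 and 3. In WT_exo it was at 19.4, 17.0 and 17.8 CPM, and in EKO_exo at 16.7, 19.0 and 17.6 CPM. All WT_exo values lay above all PBS values, though PBS replicate 2 almost reached WT_exo replicate 2, and the EKO_exo range overlapped that of PBS at its lower end. Against PBS the log2 fold change was 0.26 ± 0.11 (SE) in WT_exo, with an adjusted p of 0.232, and 0.24 ± 0.11 in EKO_exo, with an adjusted p of 0.27 (edgeR quasi-likelihood test, Benjamini-Hochberg over all 14684 genes). Neither passed the threshold of 0.05.
Apoe mRNA of the recipient cells did not differ detectably between the exosome groups. EKO_exo minus WT_exo was -0.02 on the log2 scale, with a 95% interval of -0.25 to 0.21. Of the 15 macrophage and monocyte markers, 4 were measured well enough to test. Lyz2 was at 14.3, 16.0 and 16.1 CPM on average in PBS, WT_exo and EKO_exo, Cd68 at 8.07, 7.03 and 7.03 CPM, and Cd14 at 0.720, 0.748 and 0.647 CPM, and none of these 3 was called. Csf1r, the macrophage growth factor receptor gene, was higher in EKO_exo than in PBS (0.870 to 2.28 CPM, adjusted p = 0.0476) and was at 1.36 CPM in WT_exo without a call. Their part in the Apoe values was not tested. In bulk RNA, a change in the share of cells of a type and a change in mRNA per cell cannot be told apart.

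LXRβ mRNA rose with both kinds of exosome. Nr1h2 (ENSMUSG00000060601, chromosome 7, 44549616 to 44553951, minus strand) was at 138, 145 and 140 CPM in PBS, at 165, 165 and 164 CPM in WT_exo and at 177, 163 and 173 CPM in EKO_exo. All 6 exosome libraries lay above all 3 PBS libraries. The rise was 1.17-fold in WT_exo (log2 0.23 ± 0.043 SE, adjusted p = 0.0011) and 1.21-fold in EKO_exo (0.28 ± 0.043, adjusted p = 0.000141; edgeR quasi-likelihood test). These comparisons share the PBS libraries. The exosome groups themselves differed by 0.05, with a 95% interval of -0.04 to 0.14.
Of the alternatives run, one ended the Nr1h2 call in EKO_exo, that without EKO_exo replicates 1 and 3 together (0.21, adjusted p = 0.0614). Nr1h3 (LXRα) stayed near the limit of detection, with 12 to 24 counts in PBS, 12 to 18 in WT_exo and 5 to 11 in EKO_exo. Its interval in EKO_exo against PBS, -2.34 to 0.58 on the log2 scale, was too wide to place it.

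**Figure D2:**
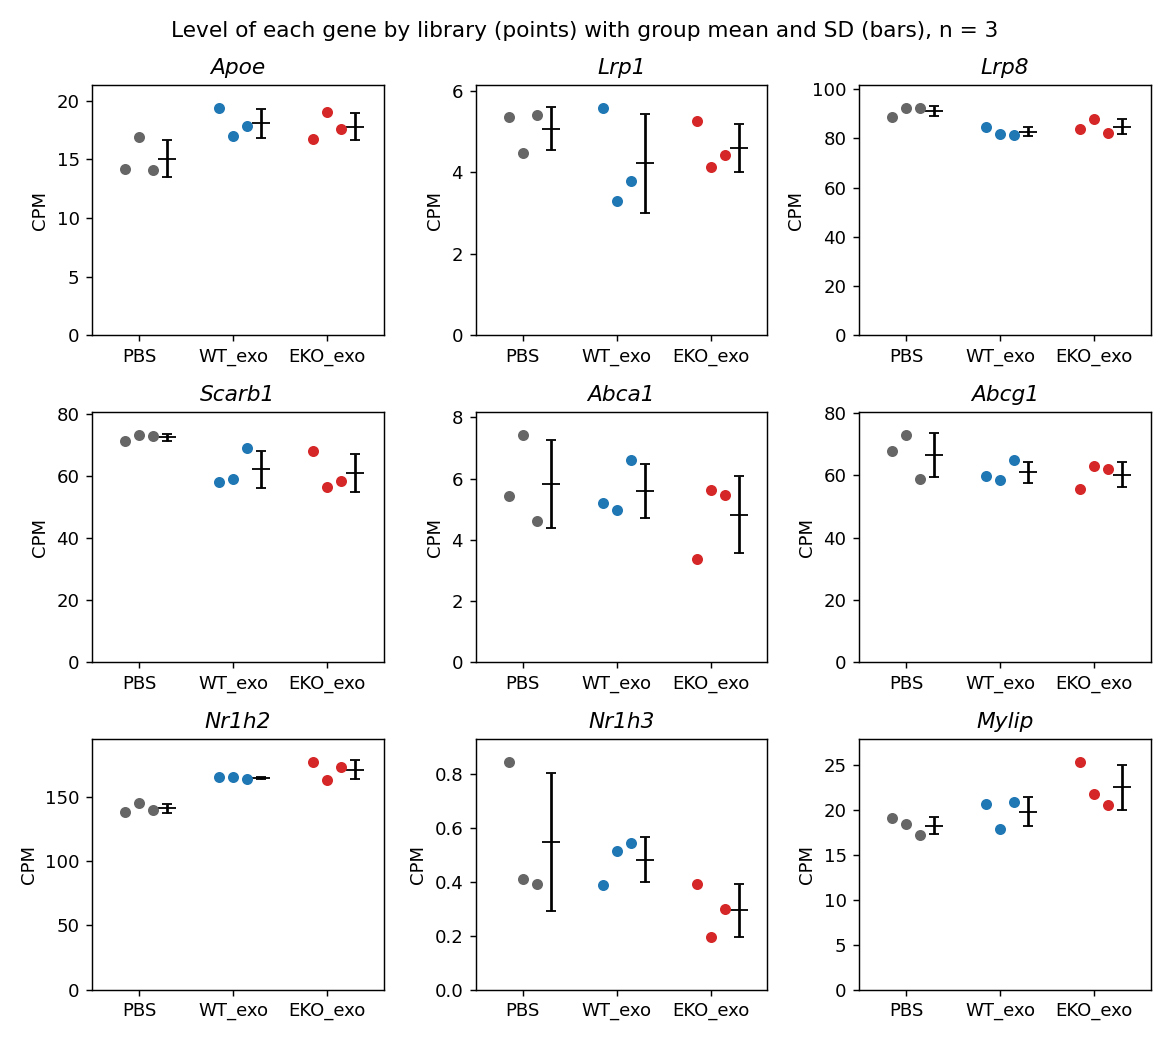
CPM of each gene in each library (points, replicates 1 to 3 from left to right) with group mean and SD (n = 3) beside them; every axis starts at 0. Nr1h2 is above PBS in all 6 exosome libraries, Scarb1 and Lrp8 are below PBS in all 6, and the remaining 6 genes overlap between PBS and at least one exosome group.

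Among the receptors, Scarb1 fell in EKO_exo. It encodes scavenger receptor class B type 1, which binds high-density lipoprotein and moves cholesterol in and out of cells. It was at 71.2, 73.2 and 72.7 CPM in PBS, at 68.0, 56.5 and 58.3 CPM in EKO_exo and at 58.1, 59.1 and 69.0 CPM in WT_exo. PBS values were close together, and in each exosome group 1 library, EKO_exo replicate 1 and WT_exo replicate 3, lay near PBS and 2 lay lower. The log2 fold change against PBS was -0.25 ± 0.073 (SE) in EKO_exo, a call close to the threshold (adjusted p = 0.0445), and -0.22 ± 0.073 in WT_exo, not called (adjusted p = 0.0832; edgeR quasi-likelihood test).
The direct difference between the exosome groups was -0.03, with a 95% interval of -0.18 to 0.12, so the call in one group and its absence in the other is not a difference between them. Scarb1 in EKO_exo lost its call with the replicate number as a block (adjusted p = 0.0651). It also lost it without EKO_exo replicate 2 or 3, any one PBS library, or WT_exo replicate 1 or 2 (adjusted p 0.0567 to 0.171). In WT_exo, Scarb1 gained a call with no filter on low counts, a filter at a mean of 1 CPM, or the 2 compared groups alone. The adjusted p were 0.0317, 0.0391 and 0.0204 (edgeR quasi-likelihood test). Scarb1 in WT_exo was also called without WT_exo replicate 3 (-0.30, adjusted p = 0.028) or EKO_exo replicate 1 (-0.22, adjusted p = 0.036).

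Lrp8, also called ApoER2, is a receptor for apolipoprotein E and reelin. It was at 88.9, 92.5 and 92.3 CPM in PBS, at 84.8, 82.0 and 81.5 CPM in WT_exo and at 83.7, 88.1 and 82.3 CPM in EKO_exo. All exosome libraries lay below all PBS libraries, but the differences were small (-0.14 ± 0.053 and -0.11 ± 0.053 log2, SE) and neither passed the test (adjusted p = 0.153 and 0.304; edgeR quasi-likelihood test). Lrp1, at 3.29 to 5.59 CPM, overlapped between all groups. Its intervals against PBS, -0.71 to 0.18 in WT_exo and -0.58 to 0.31 in EKO_exo, leave room for changes larger than any called among these genes.

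Mylip encodes the ubiquitin ligase (IDOL) that sends lipoprotein receptors, LRP8 and VLDLR among them, to degradation. It was at 19.1, 18.4 and 17.2 CPM in PBS, at 20.6, 17.9 and 20.9 CPM in WT_exo and at 25.3, 21.7 and 20.5 CPM in EKO_exo. EKO_exo lay above PBS in all 3 libraries, with its replicate 1 the highest of the 9, and WT_exo overlapped both. The change in EKO_exo, 0.30 ± 0.11 log2 (SE), was as large as that of Nr1h2 but noisier, and it did not pass (adjusted p = 0.111; edgeR quasi-likelihood test). EKO_exo minus WT_exo was 0.18, with a 95% interval of -0.04 to 0.40.

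The efflux transporters did not pass the test in any comparison. Abcg1 was at 67.8, 73.0 and 59.0 CPM in PBS, at 59.7, 58.4 and 64.8 CPM in WT_exo and at 55.6, 62.9 and 62.2 CPM in EKO_exo. PBS replicates 1 and 2 were the highest of the 9 libraries, while PBS replicate 3 lay inside the exosome range. The log2 fold changes against PBS were -0.13 ± 0.073 and -0.15 ± 0.074 (SE) in WT_exo and EKO_exo.
Abca1 was at 5.42, 7.43 and 4.62 CPM in PBS, at 5.21, 4.97 and 6.62 CPM in WT_exo and at 3.38, 5.62 and 5.48 CPM in EKO_exo. All 3 groups overlapped, and EKO_exo replicate 1 was the lowest library. At 95 to 218 counts, the interval in EKO_exo, -0.72 to 0.18 on the log2 scale, was wider than that of Abcg1 (-0.30 to 0.01). In EKO_exo, Nr1h2 was thus called higher while the fold changes of the LXR targets Abca1 and Abcg1 lay below 0 without a call and that of Mylip above 0 without a call.

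**Figure D3:**
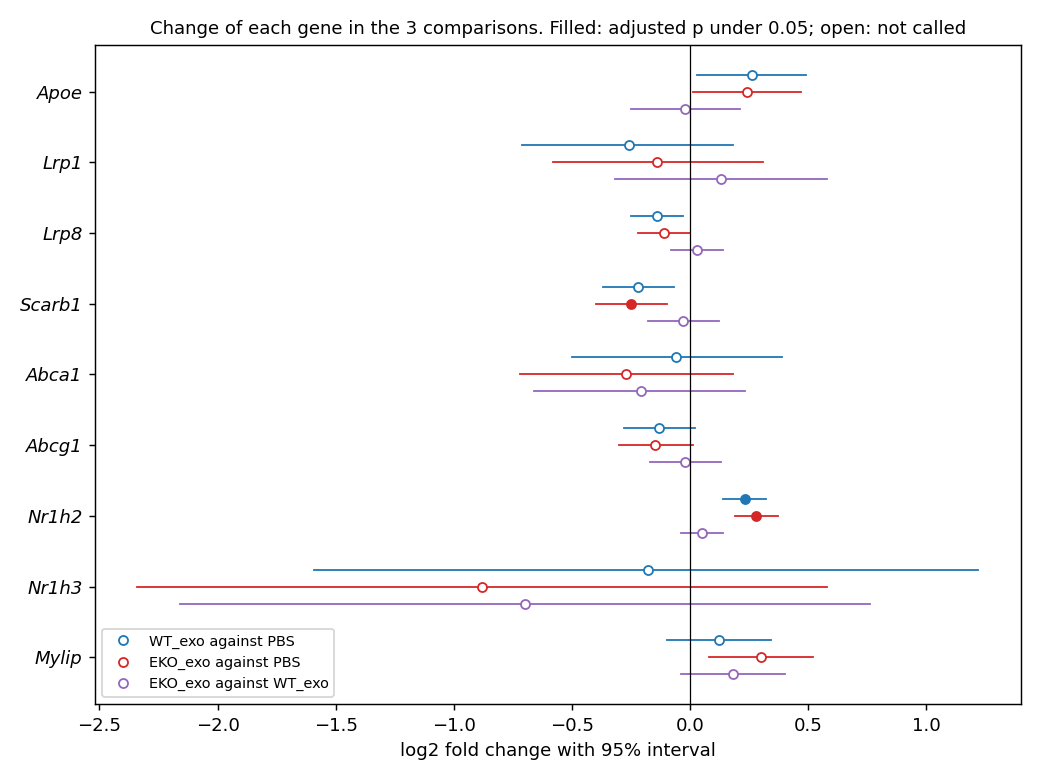
Log2 fold change of each gene in 3 comparisons with its 95% interval; filled points passed the test at an adjusted p under 0.05 over all genes. Nr1h2 is filled for both exosome groups against PBS, Scarb1 for EKO_exo against PBS, and every interval of EKO_exo against WT_exo crosses 0.

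Counted together, 2 of the 9 genes were called in EKO_exo against PBS (Nr1h2 higher, Scarb1 lower), where 5.08% of all tested genes were called. In WT_exo against PBS 1 of 9 was called, against 4.97% of all genes. Values of the groups did not overlap for 5 of the 9 in EKO_exo and for 4 in WT_exo, where the shares over all genes were 20.5% and 22.2%. Nr1h3, near the limit of detection, is among the 5 by a very small margin. It was at 0.392 CPM (11 counts) in EKO_exo replicate 1 and 0.393 CPM (12 counts) in PBS replicate 3. The median log2 fold change of the 9 was -0.14 and -0.13 in these comparisons, and over all genes it was 0.000 and 0.003. Between the exosome groups none of the 9 was called and none was free of overlap, with a median of -0.02, where 0.0341% of all genes (5 genes) were called, 0.0272% higher and 0.00681% lower, and 11.8% did not overlap. At an unadjusted p under 0.05 none of the 9 passed in that comparison either, and none was called by DESeq2.
A contrast of both exosome groups together against PBS was added after the data were seen. It called 7.08% of all genes (3.04% higher, 4.04% lower), and again Nr1h2 (0.25 ± 0.038, SE, adjusted p = 4.2e-05) and Scarb1 (-0.23 ± 0.063, adjusted p = 0.0181). Apoe (0.25 ± 0.099, adjusted p = 0.145), Lrp8 (-0.12 ± 0.046, adjusted p = 0.114) and Mylip (0.21 ± 0.094, adjusted p = 0.213) did not pass in it (edgeR quasi-likelihood test).

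Other genes of cholesterol handling were described by 8 lists of 104 genes, of which 76 were measured. In EKO_exo against PBS 3 of the 76 rose and 8 fell, and in WT_exo against PBS 2 rose and 7 fell, where 2.21% and 2.87% of all genes rose and fell in the former and 1.83% and 3.14% in the latter. The median of the 76 was -0.02 and -0.04. The shares over all genes also apply to the counts of single lists below. Between the exosome groups 0 of the 76 were called by edgeR or DESeq2, and 4 had an unadjusted p under 0.05 (edgeR). Without EKO_exo replicates 1 and 3, 1 of the 76 was called in EKO_exo against PBS, Scd2.

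The lipoprotein receptor family of Lrp1 and Lrp8 held 9 measured genes in its list, and none rose. Sorl1, a sorting receptor of this family that carries apolipoprotein E and other cargo between compartments, fell in both groups. It was at 86.2, 87.3 and 90.0 CPM in PBS, at 71.8, 75.8 and 65.8 CPM in WT_exo and at 69.6, 71.9 and 63.4 CPM in EKO_exo. The fall was -0.30 ± 0.062 log2 (SE) in WT_exo and -0.36 ± 0.063 in EKO_exo, with adjusted p of 0.00246 and 0.000449 (edgeR quasi-likelihood test), and all 6 exosome libraries lay below PBS. Lrp5, a Wnt co-receptor, fell in WT_exo (-0.36 ± 0.082, adjusted p = 0.00744, lost without PBS replicate 2 or WT_exo replicate 2 or 3) and was at -0.26 ± 0.082 in EKO_exo (adjusted p = 0.0589, past the threshold without a count filter, with a 1 CPM filter and with DESeq2, lowest adjusted p = 0.0297).
Vldlr was close to the detection limit, with 22 to 38 counts in PBS, 17 to 20 in WT_exo and 0 to 17 in EKO_exo, and was not called. Among 11 measured receptor partners and scavenger receptors, 0 were called in WT_exo (2 at an unadjusted p under 0.05, edgeR). Of 15 other apolipoprotein and lipoprotein enzyme genes 4 were measured and none was called (0 at an unadjusted p under 0.05, edgeR). Apoc1 and Apoc2, neighbours of Apoe in its gene cluster, had 0 counts throughout.

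Of 11 measured LXR partners and coregulators 1 rose in EKO_exo and 0 in WT_exo, where 1 had an unadjusted p under 0.05 (edgeR). Over all genes, 2.21% rose in EKO_exo and 1.83% in WT_exo. Gps2, a subunit of the corepressor complex, was at 0.20 ± 0.061 log2 in EKO_exo (adjusted p = 0.0461). That call was lost under 11 of 17 alternatives. The retinoid X receptor genes Rxra (-0.17 and -0.06 in EKO_exo and WT_exo) and Rxrb (0.03 and 0.00) were not called.
Of 9 measured LXR targets outside the 9 genes, 3 fell and 0 rose in each exosome group. Over all genes, 2.87% fell in EKO_exo and 3.14% in WT_exo. The 3 targets that fell were Scd2, Scd1 and Srebf1, genes of fatty acid desaturation and its regulator that SREBP-1 and insulin also control. Scd2 was at 473 to 520 CPM in PBS, 328 to 336 in WT_exo and 316 to 361 in EKO_exo, or -0.60 ± 0.042 and -0.54 ± 0.042 log2 (SE; adjusted p = 3.65e-10 and 1.64e-09, edgeR quasi-likelihood test). Scd1, with 81 to 98 counts in PBS, was at -1.66 and -1.42 log2. Srebf1 was at -0.19 ± 0.046 and -0.24 ± 0.046. Scd1 lost its call without PBS replicate 2 in either comparison, without PBS replicate 1 or 3 or EKO_exo replicate 2 or 3 in EKO_exo, and without WT_exo replicate 2 or 3 in WT_exo. Srebf1 lost its call in WT_exo without PBS replicate 2 or WT_exo replicate 1 or 2. Lpcat3, which remodels phospholipids, was at -0.13 and -0.16 log2 and not called.

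Among 7 other ABC lipid transporters, Abca7 rose in both groups. It encodes a relative of ABCA1 that handles phospholipid and supports phagocytosis. It was at 107, 99.8 and 107 CPM in PBS, at 126, 129 and 127 CPM in WT_exo and at 140, 121 and 125 CPM in EKO_exo. The rise was 0.29 ± 0.052 log2 (SE) in WT_exo and 0.30 ± 0.053 in EKO_exo (adjusted p = 0.000816 and 0.000588, edgeR quasi-likelihood test). All 6 exosome libraries lay above PBS, as for Nr1h2.
Of 14 genes of cholesterol trafficking, storage and oxysterols, Gramd1b, which carries plasma membrane cholesterol to the endoplasmic reticulum, rose by 0.16 ± 0.040 and 0.17 ± 0.040 log2 in WT_exo and EKO_exo. Its call was lost without PBS replicate 1 in either comparison, without EKO_exo replicate 1 in EKO_exo, and without PBS replicate 2 or any one WT_exo library in WT_exo. Stard4, a cholesterol carrier, fell in EKO_exo (-0.27 ± 0.067), which PBS replicate 1, PBS replicate 2 or EKO_exo replicate 2 decided (not called without one of them), and was at -0.15 ± 0.066 in WT_exo without a call. Ch25h, which makes the LXR ligand 25-hydroxycholesterol, had 0 to 9 counts and was not tested. Of 14 sterol-sensing and SREBP-2 target genes, Lss and Cyp51 fell in both groups (-0.30 to -0.18 log2). Over all genes, 2.87% fell in EKO_exo and 3.14% in WT_exo. Lss lost its call in EKO_exo without EKO_exo replicate 1 or 2 or PBS replicate 2, and in WT_exo without PBS replicate 2 or 3 or any one WT_exo library. Cyp51 lost it in EKO_exo without EKO_exo replicate 1 or PBS replicate 1 or 2, and in WT_exo without PBS replicate 1 or WT_exo replicate 1. Srebf2 was at -0.05 and -0.01 and not called.

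**Figure D4:**
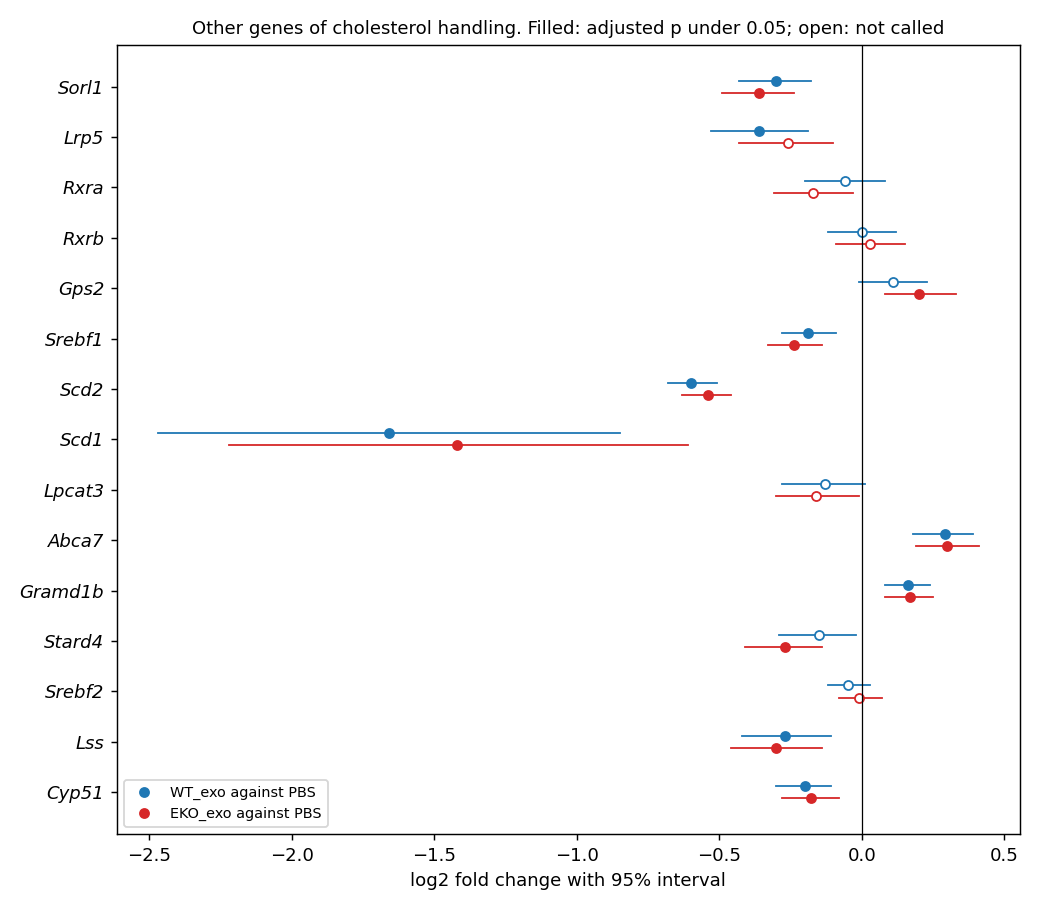
Log2 fold change against PBS with 95% interval for 15 other genes of cholesterol handling in WT_exo and EKO_exo; filled points passed the test at an adjusted p under 0.05. Abca7 and Gramd1b are filled to the right of 0 in both groups, and Sorl1, Srebf1, Scd2, Scd1, Lss and Cyp51 to the left.

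The genes whose log2 CPM followed Apoe and the called members Nr1h2 and Scarb1 most closely over the 9 libraries were looked up among 9567 genes of at least 5 CPM. The libraries share their group differences and scaling, so these values are descriptions. For Nr1h2 they were Prkd2, a kinase of T cell receptor signalling (r = 0.978), Lsp1, a leukocyte actin-binding protein (0.973), and Cnppd1 (0.971). For Scarb1 they were Tubd1 (0.966), Fkbp4, a co-chaperone of HSP90 (0.963), and Mtfr2 (0.958). For Apoe they were Mlx, a transcription factor of glucose and lipid metabolism (0.940), 2510039O18Rik (0.933) and the ribosomal protein gene Rpl10a (0.927). Such values are not particular to these members. The closest genes of the other members with a mean of at least 1 CPM, none of them called, reached 0.926 (Abca1) to 0.973 (Lrp8).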

How the data were processed

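Deposited by the authors were unnormalized counts, 1 whole number per gene and library. STAR 2.7.5c and GRCm38 are named in the submitters' processing notes, and the Universal Plus mRNA-Seq kit in the labels' protocols. The counter, its strand setting and its annotation: not given in the sources used here. Annotated genes that overlap a member had at most 13 counts. The highest was Gm13783, which overlaps Nr1h3 on the same strand (0 to 13 counts, where Nr1h3 itself had 5 to 24). Its part in the Nr1h3 values was not tested. Symbols, coordinates and merged exon lengths came from GENCODE M21 (GRCm38), which matched all 55536 identifiers, and promoter windows from RefSeq.

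The analysis used R 4.3.3 with edgeR 4.0.16 and limma 3.58.1. The filterByExpr filter (minimum count 10, minimum total 15) kept 14684 genes with 99.92% or more of each library. After TMM scaling, edgeR's quasi-likelihood model of the 3 groups was fitted to all 9 libraries (6 residual and 21.1 prior degrees of freedom). A call is an adjusted p under 0.05 (Benjamini-Hochberg, all 14684 genes). Intervals are 95% intervals of the log2 fold change, and CPM use the scaled library sizes. Alternatives were RLE and upper-quartile scaling, no filter, a filter at a mean of 1 CPM, DESeq2 1.42.0, the 2 compared groups alone, a replicate block, and leaving out each library. The fit without EKO_exo libraries 1 and 3 was chosen after seeing the data. The fit was also run on counts simulated with its own shared spread, with changes placed only in genes of at least 5 CPM. That run does not assess changes in low-count genes or a spread that differs between groups, and its outcome is not reported here.

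Chi-square per degree of freedom between libraries of a group was 5.21 to 6.16 in PBS, 5.25 to 5.53 in WT_exo and 6.75 to 9.54 in EKO_exo. None looked like a repeated deposit. The EKO_exo libraries thus differed more among themselves, while the main fit shares its estimate of the spread over all groups. Members and lists were chosen with earlier results of these data known. Named genes are the 9 members, the called genes of each list (at most 4), a fixed set (Vldlr, Rxra, Rxrb, Srebf1, Srebf2, Ch25h, Lpcat3) and the 3 genes most like Apoe and each called member. Some list genes are included in the counts but not reported here by name. Marker lists for dendritic, CD8 T, NK, neutrophil, erythroid and platelet cells summed to at most 12.9 CPM in any library.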

Additional observations from a re-analysis of the deposited data

How the results depend on the processing

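Nr1h2 kept its call and direction in WT_exo against PBS under all 17 alternatives run (log2 0.21 to 0.25, adjusted p 5.85e-06 to 0.0128), and in EKO_exo under 16 of 17 (0.21 to 0.31). Apoe, Lrp8 and Mylip stayed without a call in all 3 comparisons. Scarb1 kept its direction against PBS, but its adjusted p ran from 0.00636 to 0.171 in EKO_exo and from 0.0204 to 0.355 in WT_exo. Counts limit Nr1h3, Abca1, Lrp1 and Vldlr.

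The number of the 9 genes called in EKO_exo against PBS went from 2 to 1 with the replicate block, which left Nr1h2. It was 1 to 2 when single libraries were left out. In the fit without EKO_exo libraries 1 and 3, Nr1h2 was at 0.21 and Scarb1 at -0.36 log2 in that comparison. In WT_exo against PBS it went from 1 to 2 with no filter, with the 1 CPM filter, with the 2 compared groups alone and without EKO_exo libraries 1 and 3, and was 1 to 2 when single libraries were left out. Genes called in the 8 lists were 5 to 11 in EKO_exo and 4 to 9 in WT_exo with single libraries left out, against 11 and 9, and 1 in EKO_exo without EKO_exo libraries 1 and 3, a fit that keeps 1 EKO_exo library and assumes that it varies like the other groups.

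Over all genes, 375 to 687 were called in EKO_exo against PBS with single libraries left out, against 746, with the lowest counts without PBS replicate 1 (399) or 2 (375), and 249 without EKO_exo libraries 1 and 3. In WT_exo against PBS the range was 399 to 870, against 730, with 410 and 399 without PBS replicates 1 and 2, and 441, 430 and 432 without WT_exo replicates 1, 2 and 3. Between the exosome groups 5 were called, and the counts were 28 with no filter, 11 with the 1 CPM filter, 32 with DESeq2, 1 with the replicate block, 0 without EKO_exo libraries 1 and 3, and 0 to 6 with single libraries left out. The cause of these changes was not tested.

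Same-numbered libraries did not deviate together (correlations of -0.02 to 0.02 over genes), so the numbers are not taken to pair the samples. The replicate block ended the calls of Scarb1 and Gps2 in EKO_exo (adjusted p = 0.0651 each) and of Lss in WT_exo (0.0652), and changed no other call of a named gene.

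Directions reversed only for values without a call. Between the exosome groups and without EKO_exo libraries 1 and 3, Apoe was at 0.07, Lrp1 at -0.03, Abca1 at 0.00, Abcg1 at 0.04 and Nr1h2 at -0.02. With single libraries left out, that comparison ran from -0.07 to 0.03 for Apoe, from -0.02 to 0.38 for Lrp1, from -0.11 to 0.06 for Scarb1 and from -0.05 to 0.04 for Abcg1. In WT_exo against PBS the values ran from -0.20 to 0.16 for Abca1, from -0.38 to 0.26 for Nr1h3 and up to 0.02 for Rxrb, which was at 0.00 with RLE, no filter or DESeq2. In EKO_exo against PBS they ran from -0.02 to 0.10 for Rxrb and from -0.04 to 0.02 for Srebf2.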
